A study of Homo sapiens with 6 samples.

Results

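The 10 genes described here encode enzymes and lectins that fold secretory and membrane proteins in the lumen of the endoplasmic reticulum (ER). They were taken by name from the deposited gene table of 29571 rows, and all 10 were found: 6 protein disulfide isomerase (PDI) oxidoreductases (P4HB, PDIA3, PDIA4, PDIA5, PDIA6 and TXNDC5), 2 ERO1 oxidases (ERO1A and ERO1B) and 2 lectin chaperones (CALR and CANX). RNA was sequenced from DB cells, an established human diffuse large B-cell lymphoma line, in a group labelled DB_ZHX2 and a group labelled DB_ZHX2_Mut4, called ZHX2 and Mut4 cells below. ZHX2 is a zinc finger and homeobox transcription factor. The labels give no treatment or time, and they state neither what Mut4 alters nor how the ZHX2 forms were introduced. There is no group of unmodified cells, so every level is lower or higher only relative to the other group.

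Disulfide bonds form in the ER when PDI-family enzymes pass oxidising equivalents from ERO1 to cysteines of a new chain, and the same enzymes reshuffle bonds that are wrong. Glycoproteins are held meanwhile by calnexin and calreticulin, lectins that bind trimmed N-glycans and bring PDIA3 to the chain. In B-lineage cells this machinery is known to expand as cells prepare to secrete antibody, and many of its genes are known targets of the unfolded protein response.

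Each group was labelled as 3 libraries, but its 3 columns were 1 profile multiplied by constants: 40 of 40 member values in replicates 2 and 3 were the constant multiple of replicate 1, within a relative tolerance of 1e-06. In Mut4 cells the multiples were 1.05 and 1.21, and in ZHX2 cells 1.33 and 0.897. Each group therefore counted as 1 sample, no difference below has a replicate check, and no error between replicates or p-value was computed. Whether columns of the groups overlap follows from the ratio of the profiles and the constants alone, and adds nothing to the ratio. Levels are FPKM, a value normalized for transcript length and depth. Total depth is unknown, and column sums ran from 258080 to 383426 FPKM. Whether the libraries came from separate cultures is not stated. In bulk RNA, fewer cells of a type and less RNA per cell cannot be told apart. B-cell markers were present in both groups: all 10 passed the filter, at 16.8 FPKM or more in ZHX2 cells and 19.9 FPKM or more in Mut4 cells. Their summed level was 996.7 FPKM in the Mut4 profile and 904.5 FPKM in that of ZHX2, and their median log2 difference was 0.24. Of the B-cell markers, FCRLA was 2.04-fold lower in Mut4 cells and CD37 1.64-fold higher. None of the 4 T cell markers with a row passed, with sums of 0.928 FPKM (Mut4) and 1.08 FPKM (ZHX2) and CD3G at 0. Of 6 myeloid markers with a row only LYZ passed, at 2.97 and 3.55 FPKM. ZHX2 itself was listed at 13.7, 14.5 and 16.6 FPKM across the Mut4 columns, against 16.7, 22.3 and 15.02 FPKM across those of ZHX2, without separation of an introduced form from the cells' own gene.

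All 10 genes were lower in Mut4 cells than in ZHX2 cells, with differences of unequal size, except that PDIA5, TXNDC5 and ERO1A were higher when ZHX2 replicate 2 was left out. CALR, PDIA3, PDIA4, ERO1B and CANX passed a threshold of 1.5-fold, PDIA6 was 1.42-fold lower, and P4HB, TXNDC5, PDIA5 and ERO1A differed by 1.17-fold or less. Folds are ratios of mean FPKM + 1, which understates the ratio of low genes such as ERO1B. The count of 5 of 10 stands beside 2.56% of the 12643 genes compared, those that reached 1 FPKM in 3 or more of the 6 columns. None of the 10 was 1.5-fold higher in Mut4 cells, against 2.54% of genes compared. The median log2 difference (Mut4 minus ZHX2) of the 10 genes was −0.55, while that of all genes compared was 0.02. Since the columns differ by constants, the count depends on which of them are averaged: it was 1 (CALR) without ZHX2 replicate 2 and 2 (CALR and PDIA3) without Mut4 replicate 1. Under all 13 alternative ways of computing the differences, all members compared lay below the median of all genes, and their median was 0.54 to 0.59 below it.

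**Figure D1:**
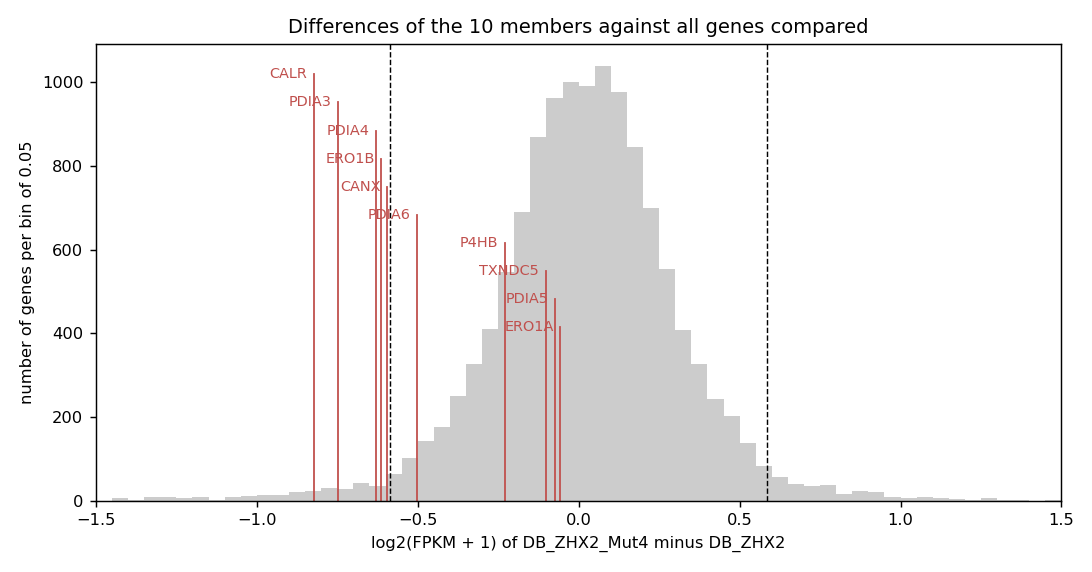
Histogram of the log2 difference in FPKM + 1 (Mut4 minus ZHX2) over 12643 genes in bins of 0.05, drawn from −1.5 to 1.5, with a red line for each of the 10 members and dashed lines at 1.5-fold. CALR, PDIA3, PDIA4, ERO1B and CANX lie to the left of the lower dashed line, PDIA6 just inside it, and P4HB, TXNDC5, PDIA5 and ERO1A among the bulk of genes.

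Calreticulin, the soluble lectin that also stores calcium, was the most abundant of the 10 and, on the FPKM + 1 scale, the furthest apart (ERO1B was further apart with a pseudocount of 0.1 or none). CALR (chromosome 19, 12938578 to 12944489 on GRCh38) was listed at 115.1, 121.2 and 139.0 FPKM across the Mut4 columns, against 206.3, 275.03 and 185.1 FPKM across those of ZHX2. The columns of the groups did not overlap, and the means of 125.1 and 222.1 FPKM are 1.77-fold apart (log2 difference −0.82). Only 1.20% of genes compared had a lower ratio. Calnexin, its membrane-anchored counterpart, followed the same direction with a smaller difference. CANX (chromosome 5, 179678628 to 179730925) stood at 31.2, 32.8 and 37.6 FPKM across the Mut4 columns, against 47.99, 63.99 and 43.1 FPKM across those of ZHX2. Its mean was 1.51-fold lower in Mut4 cells (log2 difference −0.60), just past the threshold, and its columns did not overlap either. Within a profile, where the constants between columns cancel, CALR was 4.30 times CANX in ZHX2 cells and 3.69 times CANX in Mut4 cells.

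PDIA3, the oxidoreductase that both lectins recruit, lay closest to CALR. PDIA3 (chromosome 15, 43746392 to 43773279) had 23.3, 24.5 and 28.1 FPKM in Mut4 cells and 40.05, 53.4 and 35.9 FPKM in ZHX2 cells. These columns were apart, with a mean 1.68-fold lower in Mut4 cells (log2 difference −0.75). The FPKM of PDIA3 relative to CALR was 0.194 in ZHX2 cells and 0.202 in Mut4 cells, so this pair kept nearly the same proportion while both were lower. The gene is overlapped on the opposite strand by ELL3, with a mean of 32.6 FPKM (Mut4) against 23.1 FPKM (ZHX2), and by AC018512.1, at 3.93 and 11.5 FPKM. Its processed pseudogene PDIA3P1 was at 4.59 and 6.63 FPKM. The sources used here do not say whether counting used strand, so reads of these records may be divided incorrectly, and the part of any of them in the PDIA3 value was not tested.

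Among the other PDI enzymes, PDIA4 and PDIA6 were lower in Mut4 cells, whereas P4HB and TXNDC5 differed little. PDIA4, which carries an additional thioredoxin-like domain, was listed at 56.5, 59.4 and 68.2 FPKM across the Mut4 columns, against 88.6, 118.1 and 79.5 FPKM across those of ZHX2. The groups' columns were separate, and the mean was 1.55-fold lower in Mut4 cells (log2 difference −0.63). PDIA6, known as a modulator of the ER stress sensor IRE1, was at 78.1, 82.2 and 94.3 FPKM across the Mut4 columns, against 112.0, 149.3 and 100.5 FPKM across those of ZHX2. Its log2 difference of −0.50 stayed under the 1.5-fold threshold, and its columns did not overlap. It and CANX are the members on either side of that threshold.

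P4HB, the founding PDI and also a subunit of collagen prolyl 4-hydroxylase, overlapped between the groups. Its columns read 33.8, 35.6 and 40.8 FPKM in Mut4 cells and 40.1, 53.5 and 36.03 FPKM in ZHX2 cells (log2 difference −0.23). In ZHX2 cells P4HB and PDIA3 were at a ratio of 1.002, and in Mut4 cells at 1.45. TXNDC5, a PDI relative with 3 thioredoxin-like domains, was at 82.8, 87.2 and 99.98 FPKM across the Mut4 columns, against 89.8, 119.7 and 80.6 FPKM across those of ZHX2 (log2 difference −0.10). Its columns overlapped, as did those of PDIA5, an oxidoreductase linked to activation of the stress sensor ATF6. PDIA5 was low in both groups, with 3.27, 3.44 and 3.94 FPKM in Mut4 cells and 3.51, 4.68 and 3.15 FPKM in ZHX2 cells (log2 difference −0.07). PDIA6 was above TXNDC5 in ZHX2 cells and below it in Mut4 cells, at a ratio of TXNDC5 to PDIA6 of 0.802 and 1.06. The record BLOC1S5-TXNDC5, a readthrough that includes TXNDC5, was not analysed here. SEC22A overlaps PDIA5 on the same strand, with a mean of 3.11 FPKM (Mut4) against 3.45 FPKM (ZHX2).

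The ERO1 oxidases, which reoxidise PDI with molecular oxygen, differed from each other in their ratios. ERO1B (chromosome 1, 236215555 to 236281985) was listed at 1.64, 1.72 and 1.98 FPKM across the Mut4 columns, against 3.02, 4.03 and 2.71 FPKM across those of ZHX2. The columns did not overlap, and the log2 difference was −0.61, or −0.83 with a pseudocount of 0.1 in place of 1. With no pseudocount the ratio of means was 1.83, larger than the 1.78 of CALR on that scale. ERO1A, known as the form induced by hypoxia, had 5.68, 5.98 and 6.86 FPKM in Mut4 cells and 6.001, 8.001 and 5.39 FPKM in ZHX2 cells (log2 difference −0.06), with overlapping columns. ERO1A thus stood at 1.99 times ERO1B in ZHX2 cells and 3.47 times in Mut4 cells. GPR137B, on the opposite strand over ERO1B, had means of 1.41 FPKM (Mut4) and 1.87 FPKM (ZHX2), and its part in the ERO1B value was not tested. Among genes with a mean under 5 FPKM, as ERO1B and PDIA5 have, 2.8% passed the 1.5-fold threshold in that direction. The share was 1.92% from 5 to 20 FPKM, the range of ERO1A, and 3.52% at 20 FPKM or more, where the other 7 members lie.

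**Figure D2:**
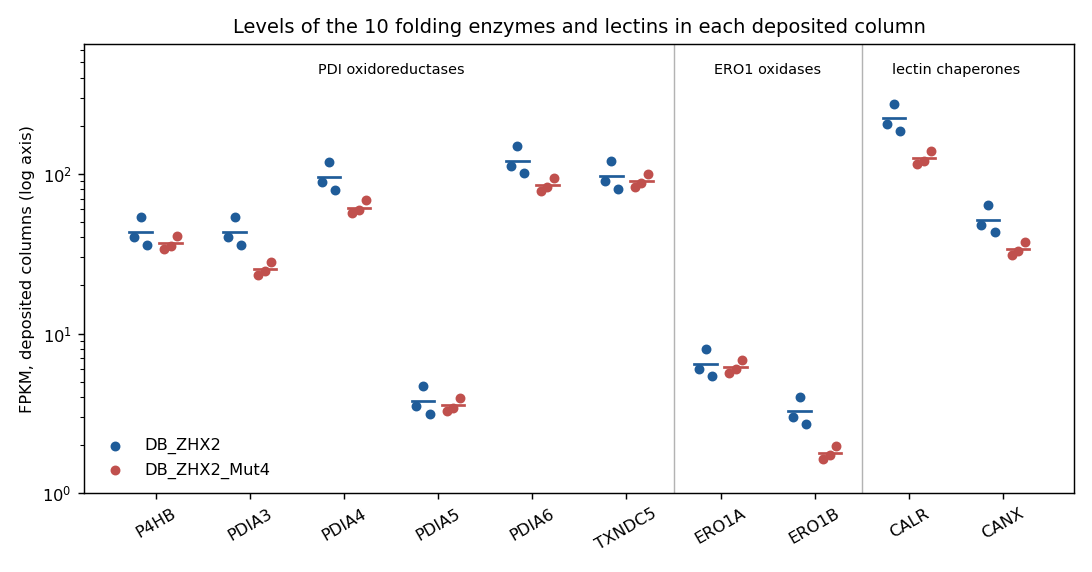
FPKM of each member on a log axis, with a point for each deposited column and a bar at their mean, for ZHX2 cells (blue) and Mut4 cells (red). The 3 points of a group are 1 profile times constants, not independent replicates; the groups are separate for CALR, CANX, PDIA3, PDIA4, PDIA6 and ERO1B and overlap for P4HB, PDIA5, TXNDC5 and ERO1A.

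In 6 of the 10 genes every Mut4 column lay below every ZHX2 column, which held for 8.86% of genes compared. This count restates the ratios and constants and is no further evidence. In the authors' deposited table, 5 of the 10 genes had a q-value under 0.05 and were lower in Mut4 cells. This held for 1.78% of 29568 rows, which include rows under the filter, unlike the 12643 genes compared. The q-values in the authors' deposited table were 0.00143 for CALR, 0.0371 for CANX, 0.00391 for PDIA3, 0.0274 for PDIA4 and 0.000998 for ERO1B, and 0.108 for PDIA6. None of the 10 was marked as significant in the authors' deposited table, where their ratios (ZHX2 over Mut4) reached 1.84 at most (ERO1B). HSPA5, the ER chaperone used as a reference below, was marked, at a deposited ratio of 3.14. The sources used here do not state the test behind those q-values. Among the 10 genes they rank as the deposited ratios do, and the 5 under 0.05 are the 5 past 1.5-fold. They are therefore no separate support for the differences, and the deposited columns hold no replicate error.

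Summed over the 10 genes, FPKM came to 468.7 in Mut4 cells and 686.3 in ZHX2 cells. As a share of each column's sum, which is free of the constants, the 10 genes made up 1466 per 1000000 in Mut4 cells and 2216 per 1000000 in ZHX2 cells, 1.51 times as much. The lectins accounted for 33.9% of the members' summed FPKM in Mut4 cells and 39.9% in ZHX2 cells. The PDI enzymes held 64.4% and 58.7%, and TXNDC5 alone 19.2% and 14.1%. The balance within the group of genes was therefore tilted toward CALR in ZHX2 cells and toward TXNDC5 in Mut4 cells. By level, CALR came first in both groups and ERO1B last.

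Promoter sequences were read from RefSeq (GRCh38.p14, 250 bases before to 50 after each annotated start) for 9 of the 10 genes. PDIA3 had no entry. The ER stress element, to which the factors ATF6 and NF-Y are known to bind, is CCAAT followed after 9 bases by CCACG. An exact match on either strand was found in 4 of the 9 (CALR, CANX, ERO1B and PDIA6), against 25 of 27305 genes in the table (0.0916%). With only the 200 bases before the start, it was found in 2 of the 9 (PDIA6 and CANX), against 21 genes. The matches are shown with up to 10 flanking bases on the strand that reads CCAAT first, both blocks in capitals, beside that of HSPA5, the main ER chaperone, as a reference:
CALR: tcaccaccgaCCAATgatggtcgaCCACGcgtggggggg
CANX: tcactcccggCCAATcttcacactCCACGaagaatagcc
ERO1B: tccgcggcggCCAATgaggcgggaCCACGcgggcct
PDIA6: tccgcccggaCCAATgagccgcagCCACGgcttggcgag
HSPA5: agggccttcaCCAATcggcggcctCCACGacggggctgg

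The 19 bases of the CALR element lie at chr19:12938384-12938402 on the minus strand, opposite to the gene at bases −225 to −207 from its start. In CANX they lie at chr5:179698778-179698796 on the plus strand, within 3 of its 4 windows, and in ERO1B at chr1:236282183-236282201 on the plus strand, opposite to the gene. The PDIA6 element, at chr2:10812853-10812871 on the minus strand, reads in the direction of the gene, at bases −86 to −68 from 1 of its 2 annotated starts. The bases between the blocks differed in all 4. The 4 genes with the element had log2 differences of −0.82, −0.60, −0.61 and −0.50 for CALR, CANX, ERO1B and PDIA6. Of the 5 genes without it, PDIA4 was at −0.63 and P4HB, TXNDC5, PDIA5 and ERO1A between −0.23 and −0.06. The element was first described in promoters of ER chaperone genes, so finding it in this family is not independent evidence, and a match is not a measured binding site.

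The shorter blocks were common. CCAAT alone, on either strand and counted also inside the element, was in the windows of 7 of 9 members and of 39.7% of genes, and CCACG in 7 of 9 and 42.1%. The alternative ER stress element, ATTGG and CCACG 1 base apart, was in none of the 9 and in 0.0696% of genes, and the ATF4-type block TGATGNAAT in none and in 1.22%. TGACGTGG, the core of the unfolded protein response element, was found only in TXNDC5, against 0.927% of genes. Windows of 3 members that lack the spaced pair are printed in the direction of the gene, with CCAAT and CCACG in capitals on either strand (on the other strand they read ATTGG and CGTGG), as is TGACGTGG. P4HB is at chr17:81860486-81860785, PDIA4 at chr7:149028441-149028740 and TXNDC5 at chr6:7910028-7910327, all on the minus strand:
P4HB: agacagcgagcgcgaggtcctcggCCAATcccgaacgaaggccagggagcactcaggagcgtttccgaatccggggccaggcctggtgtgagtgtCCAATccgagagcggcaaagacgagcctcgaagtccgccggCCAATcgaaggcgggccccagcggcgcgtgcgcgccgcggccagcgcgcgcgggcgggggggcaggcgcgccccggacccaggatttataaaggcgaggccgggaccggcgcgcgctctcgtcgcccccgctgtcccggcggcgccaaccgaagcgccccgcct
PDIA4: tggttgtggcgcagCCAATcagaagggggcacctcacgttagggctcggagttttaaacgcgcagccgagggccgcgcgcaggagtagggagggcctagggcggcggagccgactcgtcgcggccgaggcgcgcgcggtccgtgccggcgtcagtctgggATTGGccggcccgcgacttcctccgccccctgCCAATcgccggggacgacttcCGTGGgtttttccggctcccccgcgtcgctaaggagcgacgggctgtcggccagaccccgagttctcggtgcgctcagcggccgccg
TXNDC5: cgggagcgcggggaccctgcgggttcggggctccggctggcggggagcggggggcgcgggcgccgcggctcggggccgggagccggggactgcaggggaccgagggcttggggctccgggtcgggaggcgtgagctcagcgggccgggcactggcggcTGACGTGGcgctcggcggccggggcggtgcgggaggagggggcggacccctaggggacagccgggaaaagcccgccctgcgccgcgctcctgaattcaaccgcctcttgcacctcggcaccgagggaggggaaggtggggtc

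P4HB had 3 CCAAT blocks and no CCACG. PDIA4 had 3 CCAAT blocks and 1 CCACG, but not at the spacing of the element. The TXNDC5 window held no CCAAT, while its other window held 1.

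**Figure D3:**
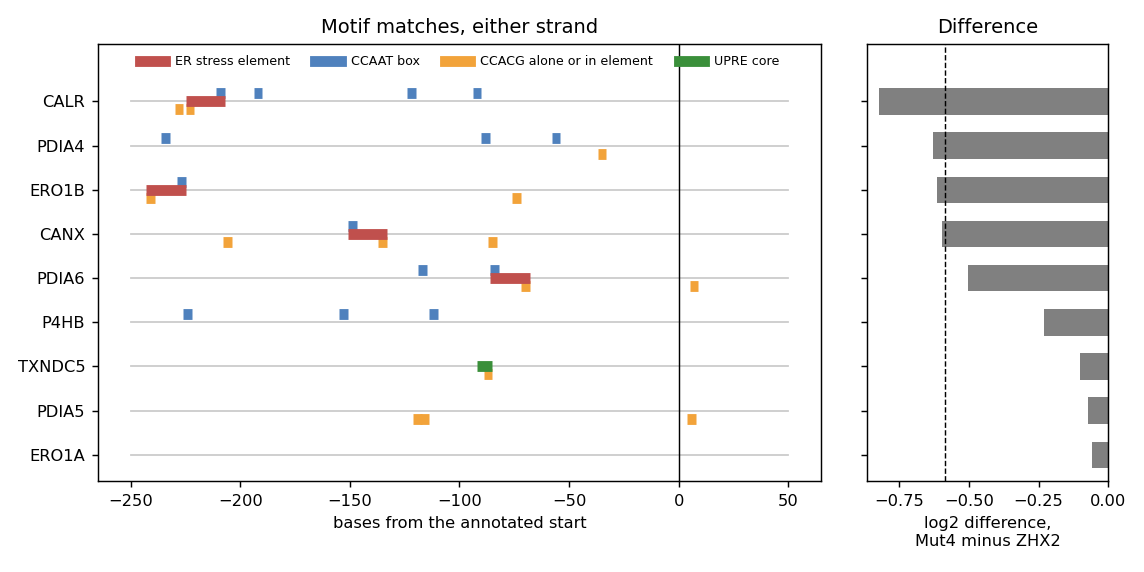
Left, positions of motif matches on either strand, in bases from the annotated start, in 1 RefSeq window per member (for genes with several, the one with the element or else the most matches). Right, the log2 difference of each gene (Mut4 minus ZHX2), with a dashed line at 1.5-fold; the element is drawn for CALR, ERO1B, CANX and PDIA6, which are at −0.50 or lower, as is PDIA4 without it.

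Genes of the neighbouring steps were mostly closer to 0 than the members. Differences this small depend on the constants: without ZHX2 replicate 2 those of MLEC, LMAN2, PPIB, FKBP11, FKBP2, TMEM258 and TXNRD1, given below as under 0, were above it. Also without ZHX2 replicate 2, the medians of several lists given as under 0 were above 0 (0.0027 to 0.095). These were other PDI-family genes, ER thiol genes, glycan trimming, lipid-linked oligosaccharide synthesis, prolyl isomerases and thioredoxin-fold genes. The median of other lectins, a list that includes MCFD2, was −0.21. Without replicate 3 of either group, the differences of TXNDC11 and TMX4 were under 0. Of all genes compared, 46.2% were below 0, the share beside which the counts below 0 that follow stand. Of 9 other PDI-family genes compared, 5 were below 0, none was 1.5-fold lower and the median log2 difference was −0.18. DNAJC10, a disulfide reductase, and TXNDC12 were lowest (−0.43 and −0.33), and TXNDC11 and TMX4 highest (0.06 and 0.07). Of 9 genes of other ER thiol oxidation and reduction, 1 was at least 1.5-fold lower and 7 were below 0, with a median of −0.14. That gene was SELENOS, a selenoprotein of ER-associated degradation, with a mean of 8.07 FPKM (Mut4) against 15.9 FPKM (ZHX2) (1.86-fold). SELENOK followed at −0.51, whereas the peroxidase GPX7 and the vitamin K epoxide reductase VKORC1 were at 0.20 and 0.25. PDILT, TMX3, AGR3 and SELENOM of these lists were not analysed here.

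Lectins of the secretory pathway outside the 10 genes were listed together with MCFD2, which is not itself a lectin. Of 6 compared, all were below 0 and 2 passed 1.5-fold, and the median log2 difference was −0.39. CLGN, calmegin, a relative of calnexin known from testis, was 2.10-fold lower in Mut4 cells, at 15.9 FPKM against 34.5 FPKM in ZHX2 cells. MCFD2, the partner of the cargo lectin LMAN1, was 1.62-fold lower (18.4 and 30.4 FPKM). The malectin gene MLEC and LMAN2 had the highest ratios of that list, at −0.17 and −0.15. LMAN1, at 803.5 FPKM (Mut4) and 1197.2 FPKM (ZHX2), was 1.49-fold lower (−0.57), just short of the threshold. LMAN2L was at −0.20. Without MCFD2, only CLGN of the list passed 1.5-fold, and its middle gene was LMAN2L, at −0.20.

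Glycan addition and trimming differed less than the 10 members by list median. Of 11 oligosaccharyltransferase subunits, which attach the glycan, 10 were below 0 and 1 was at least 1.5-fold lower (median −0.19). This was STT3A, the catalytic subunit of the translocon-bound complex, with means of 10.5 FPKM (Mut4) and 17.0 FPKM (ZHX2) (1.56-fold). RPN1 was next at −0.37, and TMEM258 and OST4 were highest at −0.03 and 0.29. For 14 genes listed under glycan trimming and reglucosylation, the median was −0.07 and none was 1.5-fold apart on the FPKM + 1 scale. Part of the list sets the cycle through calnexin and calreticulin, but ERLEC1, OS9 and ENGASE do not. ERLEC1 and EDEM2 were lowest at −0.47 and −0.36, and ENGASE and MAN1B1 highest at 0.25 and 0.26. ERLEC1, a low gene, passed 1.5-fold lower with a pseudocount of 0.1 (−0.59) and with columns divided by their sum (−0.60).

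Lipid-linked oligosaccharide synthesis had 16 of 21 genes below 0, none at 1.5-fold and a median of −0.13. DOLPP1 and NUS1 were lowest (−0.38 and −0.36) and ALG1 and DPM3 highest (0.12 and 0.33). All 4 ER prolyl isomerases compared were below 0 (median −0.15), from FKBP14 at −0.49 through PPIB at −0.16 and FKBP11 at −0.15 to FKBP2 at −0.08. The clients that use P4HB as a subunit had 1 gene compared, P4HA1, at −0.20. The cytosolic and mitochondrial thioredoxin-fold genes, which work outside the ER, had a median of −0.05 over 12 genes and none at 1.5-fold. Their lowest were TXNL1 (−0.37) and TXNRD1 (−0.17), and their highest TXN (0.19) and TXN2 (0.39).

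**Figure D4:**
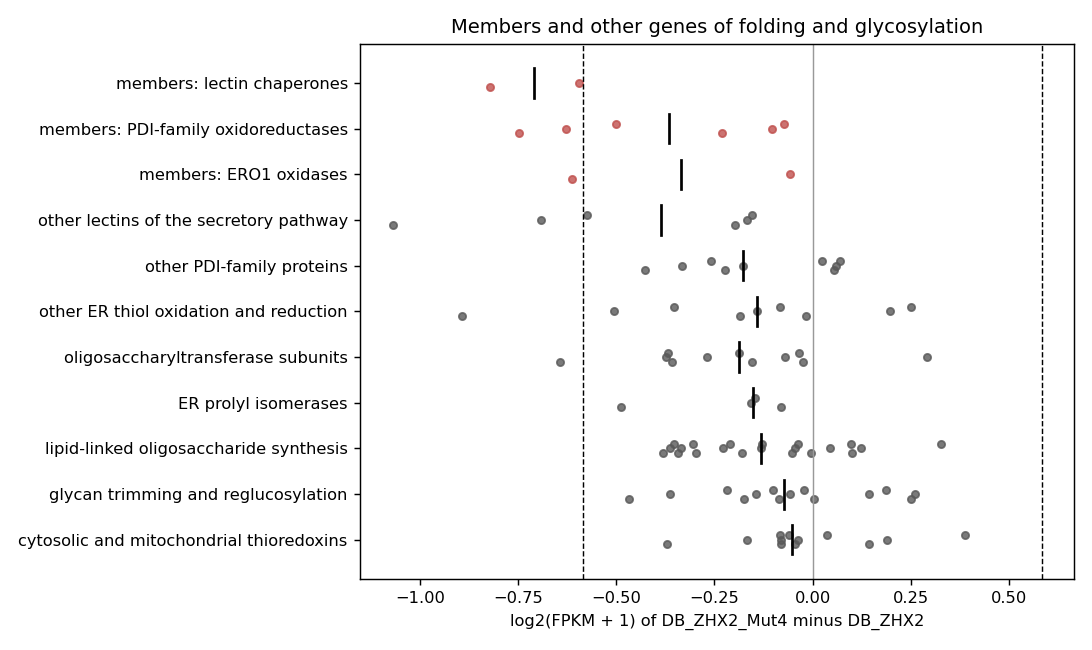
Log2 difference in FPKM + 1 (Mut4 minus ZHX2) of each gene compared, by list, with the 10 members in red, list medians as black bars and dashed lines at 1.5-fold. The lectin chaperones (median −0.71) lie furthest left, followed by other lectins with MCFD2 (−0.39), PDI oxidoreductases (−0.37) and ERO1 oxidases (−0.34). The thioredoxin-fold genes outside the ER lie closest to 0 (−0.05).

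HSPA5, used as the reference chaperone of the same compartment, was further apart than any of the 10 genes, with a mean of 86.02 FPKM (Mut4) against 267.7 FPKM (ZHX2) (3.09-fold lower, log2 difference −1.63). Plasma cell markers, whose cells carry much of this machinery, lay close to 0 as a list, with a median log2 difference of −0.08 over 10 genes. Their summed level was 331.5 FPKM (Mut4) and 376.4 FPKM (ZHX2). XBP1, the transcription factor of secretory differentiation and of the unfolded protein response, was the 1 of them at least 1.5-fold lower (81.5 and 132.7 FPKM), and CD38 the 1 at least 1.5-fold higher (12.7 and 6.84 FPKM). The part of these markers in the members' differences was not tested.

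**Figure D5:**
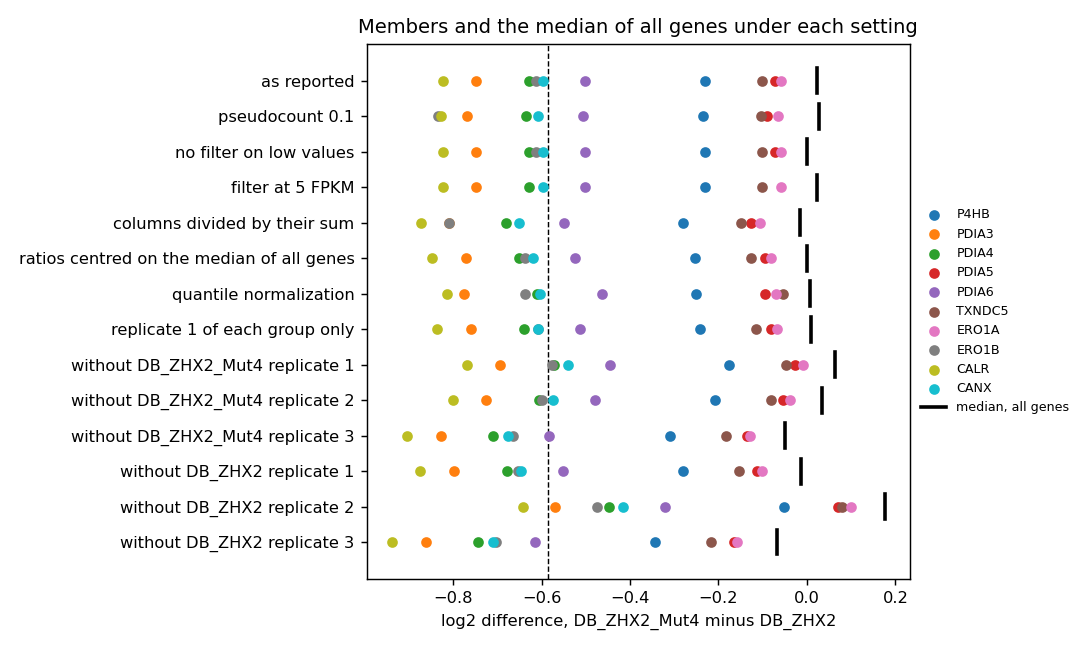
Log2 difference (Mut4 minus ZHX2) of each member, as coloured points, and the median of all genes, as a black bar, under the reported setting and 13 alternatives, with a dashed line at 1.5-fold lower. The points shift together with the black bar when columns are left out, and without ZHX2 replicate 2 only CALR stays past the line while the members remain left of the bar.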

How the data were processed

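The deposited table holds, per the file headers, FPKM for 3 libraries in each of 2 groups. For each gene the authors also deposited a ratio and its log2. A p-value with its q-value is given there too, per the file headers. The deposited ratio is ZHX2 over Mut4 replicate 1, checked against the FPKM. Named in the submitters' processing notes are the build GRCh38 and the tools edgeR, fastp, HISAT2 and StringTie. Settings and annotation are not given in the sources used here. Per the labels' protocols, poly(A) RNA and a dUTP second strand were used.

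Since each group is 1 profile, the mean of its columns was used, and the planned limma fit was not run. Differences are log2(mean FPKM + 1). The 3 rows whose FPKM and deposited ratio disagree were left out, and 15 altered symbols were restored by gene ID. Named from other lists were the 2 lowest and the 2 highest ratios, in lists with 3 or more genes compared. Members and lists were chosen with earlier results of these data known, and the motifs and level ranges after the data were seen. Motifs were searched on both strands of RefSeq windows. Gene coordinates are from GENCODE release 29 (GRCh38). The steps were tested on simulated data with planted changes in well-expressed genes and planted motifs. That run did not cover low genes such as ERO1B and PDIA5, or changes near the 1.5-fold threshold. Calculations used Python 3.11.15, numpy 2.4.6, pandas 2.3.3 and matplotlib 3.10.9. Alternatives were another pseudocount, other filters and scalings, and leaving out columns.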

Additional observations from a re-analysis of the deposited data

How the results depend on the processing

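No paired analysis was possible because each group holds 1 profile, and no test was made. At a threshold of 2-fold, 0 members were lower in Mut4 cells. Leaving out 1 column at a time gave 1 to 6 members past 1.5-fold lower, and their median log2 difference was −0.66 to −0.37, since it rescales a whole profile: the median of all genes then ran from −0.07 to 0.18. Without ZHX2 replicate 2, the log2 differences of PDIA5, TXNDC5 and ERO1A were above 0 (0.07, 0.08 and 0.10), and in no other alternative. The count stayed at 5 with a pseudocount of 0.1, with no filter, with columns divided by their sum, with ratios centred on the median, after quantile normalization and with replicate 1 of each group only. With the filter at 5 FPKM, ERO1B and PDIA5 were not compared and the count was 4 of 8. CALR was at least 1.5-fold lower in 13 of 13 alternatives, and PDIA3 in 12 of 13. Of the neighbouring genes under that threshold as reported, SELENOK and FKBP14 each passed it in 2 of 13 and ERLEC1 in 2 of 12. The unknown depth limits what can be read from ERO1B and PDIA5.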

Other observations

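Genes other than the 10 that hold the ER stress element in a RefSeq promoter window were looked up in the table. With the members, 15 such genes were compared, and 14 of 15 were below 0. Of the 15, 8 (53.3%) had a level at least 1.5-fold lower in Mut4, against 2.04% of 8869 genes whose windows lack it. The 8 include the members CALR, ERO1B and CANX and the reference HSPA5, so this share partly restates differences already given. The 11 that are not members had a median log2 difference of −0.34, and 5 (45.5%) were at least 1.5-fold lower. These 5 were HSPA5, HSP90B1, the other abundant ER chaperone (means of 52.03 FPKM in Mut4 against 89.8 FPKM in ZHX2), CRELD2 (6.66 and 11.5 FPKM), FICD, which modifies the HSPA5 protein (1.48 and 3.03 FPKM), and XBP1. ALG12, TRIM5, EIF2A, SERP1 and TMEM120A lay between −0.34 and −0.06, and ZNF17 at 0.04. These counts depend on the constants and were not recomputed with columns left out. Without ZHX2 replicate 2, CANX (−0.42) and ERO1B (−0.48) no longer passed 1.5-fold, while CALR (−0.64) and HSPA5 (−1.44) did. For genes with CCAAT of any spacing, the share at least 1.5-fold lower was 2.25%, and for those without 2.03%. For the alternative ER stress element, 2 of 11 genes (18.2%) were at least 1.5-fold lower, but 4 of 11 were below 0 and the median was 0.05. For the core of the unfolded protein response element, 4 of 103 genes (3.88%) were at least 1.5-fold lower, against 2.11% of genes without it. For the ATF4-type block, 3 of 60 (5%) were, against 2.11% without it. This list was chosen after the data were seen, several of its genes are known targets of the unfolded protein response, and no test was made.

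Genes annotated in the deposited table to protein processing in the ER by KEGG, other than the 10, numbered 142 after the filter. Of these, 16 had a level at least 1.5-fold lower in Mut4, 0 were higher at that fold, 105 were below 0 and the median log2 difference was −0.13, or 0.03 without ZHX2 replicate 2. Over all genes compared, 2.56% were lower and 2.54% higher at that fold, and 46.2% were below 0.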
